A study of Homo sapiens with 4 samples.

Results

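The genes examined were 34 canonical targets of the transcription factor p53, named by a list whose rule uses no value from these data, although it was drawn up with earlier results of them known. All 34 were found among 20098 protein-coding genes on the autosomes and X of the hg19 human genome, and each was placed at its transcription start site (TSS). Chromatin accessibility around them was read from ATAC-seq, which uses a transposase to tag open DNA, so that a pile-up of insertions (a peak) marks an accessible locus. MCF10A, an immortalized human mammary epithelial line that is not transformed, was used in its parental form with 2 replicates. The other 2 libraries came from G12V cells, which are MCF10A cells transduced with lentivirus carrying HRAS with the G12V change, together with a GFP vector. They had paused in growth after transduction and then resumed, and the oncogene was driven by an introduced vector, so they model the later, growing population and not the first days of HRAS activity.

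p53 is a DNA-binding tumor suppressor that is held at a low level by MDM2 and accumulates after DNA damage, oncogene activity and other stress. It binds a pair of 10-base elements and raises transcription of genes that stop the cell cycle, repair DNA, adjust metabolism or kill the cell, and some of its targets feed back to switch p53 off. In mammary epithelium it restrains growth of damaged or oncogene-expressing cells, and activated RAS is one of the signals known to engage it.

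The 4 peak lists differed far more between replicates than between cell types. They held 12902 peaks in MCF10A replicate 1, 34484 in MCF10A replicate 2, 14057 in G12V replicate 1 and 46698 in G12V replicate 2. The number of reads is not known from the lists, so the peak number is what limits each comparison. A locus without a peak in bulk cells may be open in fewer cells or less open in each, which cannot be told apart here, and it may also lie just under the caller's threshold. Promoters of 10 basal mammary epithelial markers had 3, 4, 0 and 3 peaks in the order MCF10A replicates 1 and 2 and then G12V replicates 1 and 2. The 5 of these without a peak in any library were KRT5, KRT14, KRT6A, TP63 and CDH1. Promoters of 5 luminal markers had 0, 3, 1 and 1 peaks, with KRT18 and ESR1 in none, so the promoter peaks did not mark the cells as basal. Of 6 markers of immune, endothelial and fibroblast cells, COL1A1 had a peak in MCF10A replicate 2 and the other 5 had none in any library. The HRAS promoter had a peak in both MCF10A libraries and in neither G12V library, and it does not check the labels, because the introduced HRAS came from a vector.

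The promoters of the p53 targets were accessible in both cell types more often than promoters in general. In the full lists none of them followed the cell type, which was rare over all promoters too. Of all promoters, 0.886% were open in both G12V libraries alone and 0.512% in both MCF10A libraries alone. With lists of equal length, given below, the PLK3 promoter had a peak in both MCF10A libraries alone. Its MCF10A replicate 1 peak had a MACS score of 40.57, where the lowest in that list was 40. The cut to equal length took no peak from that list, but it removed the PLK3 peak of G12V replicate 2. A promoter was the stretch from 1000 bp before the TSS to 500 bp after it, and it was called accessible in a library if a peak overlapped it by at least 1 bp. In MCF10A replicate 1, 18 of the 34 promoters were accessible, or 52.9% (95% Wilson interval 36.7 to 68.5), beside 22.2% of all protein-coding promoters. In MCF10A replicate 2 it was 27, or 79.4% (63.2 to 89.7), beside 44.5%. G12V replicate 1 had 17, or 50% (34.1 to 65.9), beside 24.2%, and G12V replicate 2 had 28, or 82.4% (66.5 to 91.7), beside 47%. These intervals cover counting error over genes only. The mean number was 22.5 ± 6.36 in MCF10A and 22.5 ± 7.78 in G12V (SD, n = 2), a difference of 0 (exact two-sided permutation test, p = 1). With 2 libraries against 2 the smallest p this test can give is 0.333, so it cannot pass a threshold of 0.05.

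Equally long lists left nearly the same number of these promoters open in both cell types. Taking the best 12888 peaks of every list left 18 accessible promoters in MCF10A replicate 1, 18 in MCF10A replicate 2, 17 in G12V replicate 1 and 19 in G12V replicate 2. The shares were 52.9, 52.9, 50 and 55.9%, beside 22.2, 27.9, 23.3 and 26.7% of all promoters. The spread between replicates was therefore smaller at equal length than in the full lists.

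**Figure D1:**
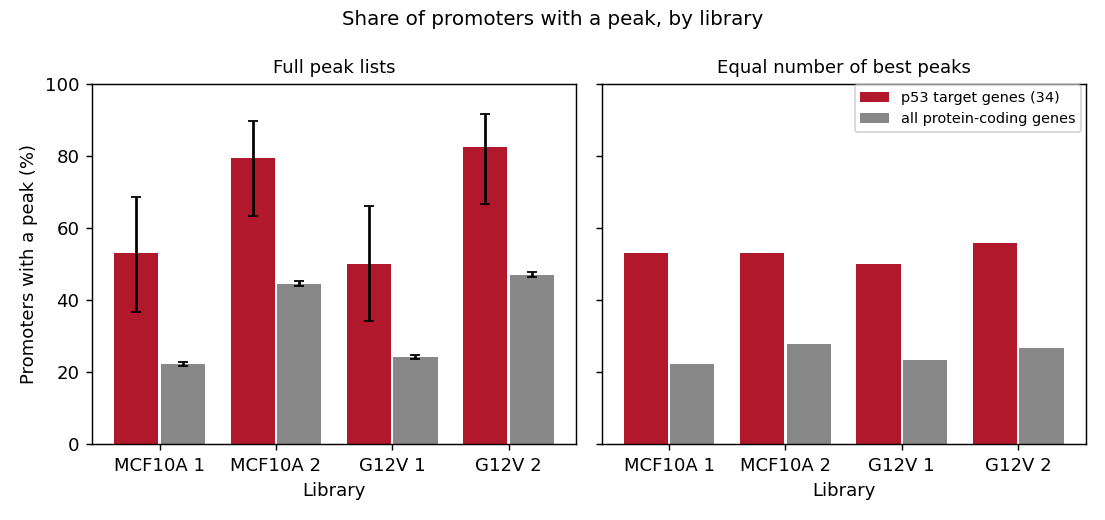
Share of promoters with a peak (vertical axis, percent) in each library for the 34 p53 target genes (red) and all protein-coding genes (grey). The left panel shows the full lists with 95% Wilson intervals as error bars, and the right panel the best 12888 peaks of each list without error bars. The red bars stand above the grey ones in every library, and the difference between replicates seen on the left is nearly gone on the right.

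Gene by gene, 11 of the 34 promoters had a peak in all 4 libraries (32.4%, beside 15% of all promoters) and 4 had none in any (11.8%, beside 46.9%). The 11 were BTG2, GADD45A, CCNG1, APAF1, AEN, CYFIP2, RRM2B, TIGAR, TP53I3, SPATA18 and ZMAT3. Leaving out MCF10A replicate 1 gave 17 promoters open in the rest, and leaving out G12V replicate 1 also gave 17. Presence in the 2 G12V libraries and absence from the 2 MCF10A libraries was found at 0 of the 34 promoters (0.886% of all promoters), and the reverse at 0 (0.512% of all promoters). In the replicate 1 pair the cell types disagreed at 13 genes, of which 7 were open in MCF10A alone and 6 in G12V alone. The 7 were PLK3, PMAIP1, TNFRSF10A, TNFRSF10B, POLK, SESN1 and SESN2, and the 6 were PPM1D, FAS, PERP, PHLDA3, XPC and FDXR. In the longer replicate 2 lists, 12 of these 13 had a peak in both cell types. So 6 promoters were open in all but G12V replicate 1 (17.6%, beside 5.35% of all promoters) and 6 in all but MCF10A replicate 1 (17.6%, beside 7.44%). A further 3, those of PLK2, MDM2 and DDB2, were open in the replicate 2 libraries alone (8.82%, beside 11.7%), and 4, those of CDKN1A, SFN, TNFRSF10B and TRIAP1, in 1 library (11.8%, beside 11.1%). The replicate 2 pair differed at SFN, open in MCF10A, and at CDKN1A and TRIAP1, open in G12V.

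**Figure D2:**
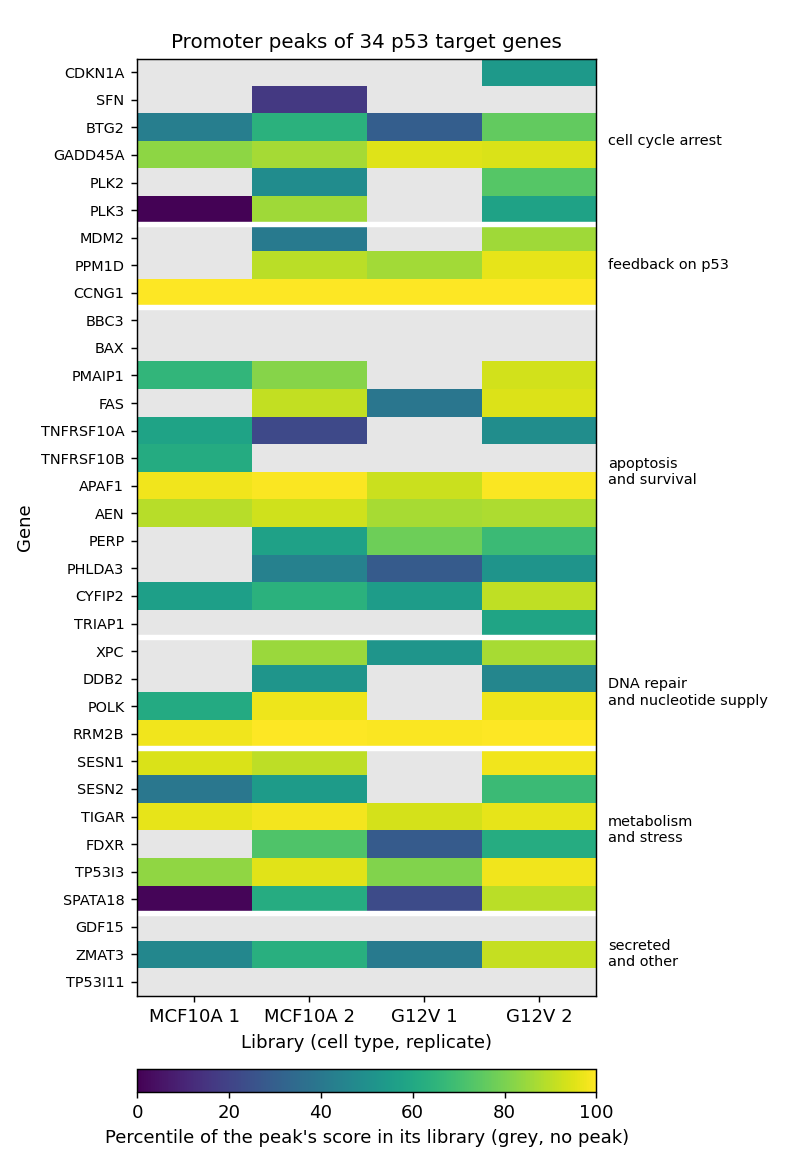
Promoter peaks of the 34 genes (rows, grouped by role) in the 4 libraries (columns). Color gives the percentile of the peak's score within its own list, from 0 to 100, and grey marks a promoter without a peak. CCNG1, APAF1, RRM2B and TIGAR are bright in all columns, BBC3, BAX, GDF15 and TP53I11 are grey in all columns, and no row is colored in both libraries of one cell type and grey in both of the other.

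Peak strength is given below as the percentile of a peak's score within its own list, because the score itself grows with depth. Where several peaks of a library lay in a promoter, the strongest was used. The median percentile of the accessible p53 target promoters was 63.6, 81.8, 77.8 and 88.8 in MCF10A replicates 1 and 2 and G12V replicates 1 and 2. Over all accessible protein-coding promoters it was 64.3, 75.1, 67.6 and 77.9. A percentile depends on how many weak peaks a list holds, so levels were read within a library. All values that follow are in this order of libraries.

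The p53 recognition sequence was then sought in the genome around these genes, to see which of its copies lay in accessible chromatin. The pattern was 2 adjoining 10-base elements, each with purines at the first 3 positions, C at position 4, A or T at the next positions, G at position 7 and pyrimidines at the last 3. The C and the G had to be present and up to 2 of the other bases could differ. The pattern is its own reverse complement, so both strands were covered. Within 50 kb of the 34 TSSs there were 39 such matches, near 27 of the genes, and 9 of the 39 (23.1%) lay in an accessible region, each at a different gene. Near all protein-coding genes 391 of 8990 matches did (4.35%). For the same pattern read backwards it was 65 of 1731 near all protein-coding genes (3.76%). Among the 12 matches with at most 1 mismatch, 4 lay in an accessible region (33.3%, beside 7.12% near all protein-coding genes).

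The 9 matches in accessible regions are shown because the regions that hold them can be compared between the cells. A match was placed in a region made by merging overlapping peaks of the 4 libraries. Whether the peak of each library covered the match itself was not checked. Each sequence is read from GRCh37 on the strand of its gene, with the 20-base match in capitals and 5 flanking bases on each side in lower case.
GADD45A: gtacaGAACATGTCTAAGCATGCTGgggac
CCNG1: tgtgaGCACAAGCCCAGGCTAGTCCgaggc
DDB2: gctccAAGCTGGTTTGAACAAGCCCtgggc
CDKN1A distal: acaaaAGACAAGCCCGGGCAAGGCCagcgg
AEN: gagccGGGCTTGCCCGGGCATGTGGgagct
FAS: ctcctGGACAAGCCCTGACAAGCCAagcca
MDM2: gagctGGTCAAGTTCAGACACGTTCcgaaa
PMAIP1: tttctGGGCTTGTTTACCCAAGTCTctaat
SPATA18: aggaaGGACATGTGTGTACATGCCCttgtc

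The first 4 of these sequences had 1 mismatch to the pattern and the other 5 had 2. The GADD45A match lay at chr1:68152458-68152477 in an intron, the CCNG1 match at chr5:162864932-162864951 in an intron and the DDB2 match at chr11:47236520-47236539, across the TSS. The CDKN1A match at chr6:36635035-36635054 was intergenic, 11446 bp before the TSS. The AEN match was at chr15:89164537-89164556 and ended just before the TSS, the FAS match at chr10:90751066-90751085, the MDM2 match at chr12:69202703-69202722 in an intron, the PMAIP1 match at chr18:57566781-57566800 before the TSS and the SPATA18 match at chr4:52918123-52918142 in an intron. Of the 9 regions that held them, 5 had a peak in MCF10A replicate 1, 9 in MCF10A replicate 2, 4 in G12V replicate 1 and 8 in G12V replicate 2. The regions at AEN, CCNG1 and SPATA18 were open in all 4 libraries, those at MDM2 and DDB2 in the replicate 2 library of each cell type, and the distal CDKN1A region in MCF10A replicate 2 alone. Of the 9 regions, 0 had a peak in both libraries of one cell type and in neither of the other. Such patterns were rare, so 0 of 9 says little. Of all regions near genes, 2.93% were open in both G12V libraries alone (gained) and 1.75% in both MCF10A libraries alone (lost). Genome-wide, 127 of the 894 matches in an accessible region (14.2%) lay in lost regions and 8 (0.895%) in gained ones. For the pattern read backwards it was 6 (5.77%) and 1 (0.962%) of 104. These are shares of matches over the whole genome. The 2.93 and 1.75% are shares of regions near genes and are no base for them.

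The next 5 matches are shown because they lay near well known members and in no accessible region of any library. CDKN1A is the best known target, PLK2 and ZMAT3 held the 2 matches without a mismatch, and BAX and GDF15 had no promoter peak.
CDKN1A proximal: gtcagGAACATGTCCCAACATGTTGagctc
PLK2: atgagAAACATGCCTGGACTTGCCCtgcac
ZMAT3: tcataAAACAAGTCCAGACATGCCTaggca
BAX: cccccGGGCAGGCCCGGGCTTGTCGcccgc
GDF15: attgcCATCTTGCCCAGACTTGTCTcgaac

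The CDKN1A match was at chr6:36644226-36644245, 2255 bp before the TSS, with 2 mismatches. The PLK2 match was at chr5:57758101-57758120, 2198 bp before the TSS, and the ZMAT3 match at chr3:178787976-178787995, 1611 bp after it. The BAX match at chr19:49458470-49458489 lay 348 bp after the TSS and the GDF15 match at chr19:18496118-18496137 lay 840 bp before it, each with 2 mismatches. A match is a likeness of letters and not a bound site, and its lying outside the peaks says only that no peak was called there.

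Counted by region and by promoter, the pattern was more frequent at the p53 targets than at genes in general, accessible or not. With up to 3 mismatches, 15 of the 138 accessible regions near these genes held a match (10.9%, beside 4.38% of all regions near protein-coding genes). With up to 2 it was 9 (6.52%, beside 1.22%). In promoters, all of one length, 13 of 34 held a match with up to 3 mismatches (38.2%, beside 5.44%) and 7 with up to 2 (20.6%, beside 1.03%). The pattern read backwards, with the same bases, was found at these genes in 0 of the 34 promoters (beside 1.98% with up to 3 mismatches and 0.284% with up to 2) and in 0 of the 138 regions (beside 1.06 and 0.208%). The genes are known as p53 targets in part because such sites were found at them, so these shares describe the list and are no support for it.

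**Figure D3:**
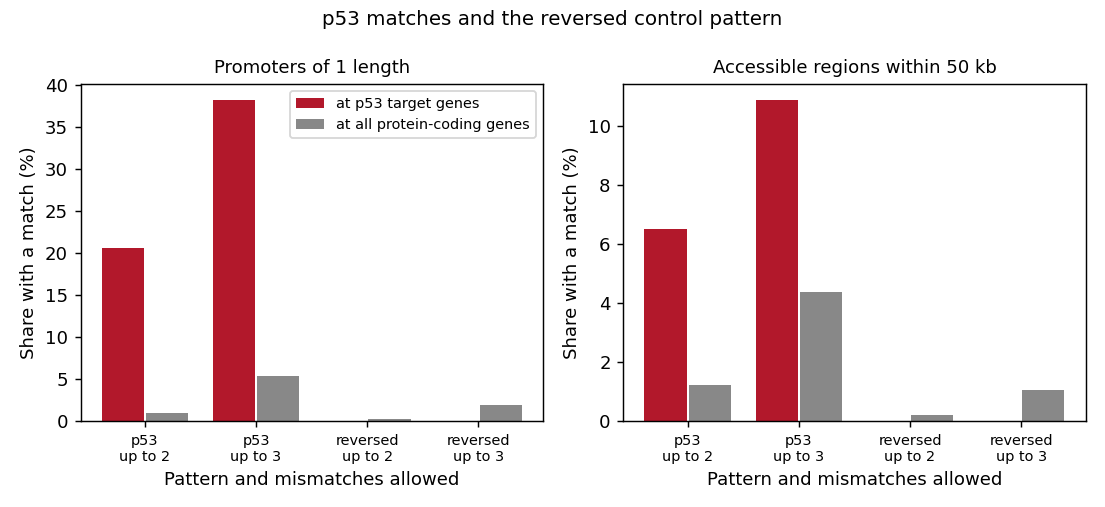
Share with a p53 match (vertical axis, percent) among promoters (left) and accessible regions within 50 kb of a TSS (right), for the 34 p53 target genes (red) and all protein-coding genes (grey), by pattern and number of mismatches allowed. The red bars reach 38.2% of promoters and 10.9% of regions with up to 3 mismatches and are at 0 for the reversed pattern, and the vertical scales of the panels differ.

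Among the 6 genes that stop the cell cycle, promoter peaks numbered 3, 5, 2 and 5. At CDKN1A, which encodes the cyclin-dependent kinase inhibitor p21, the promoter had a peak in G12V replicate 2 alone, at percentile 54.0. Its other 2 regions, 11422 bp before and 1859 bp after the TSS, were open in MCF10A replicate 2 alone at percentiles 40.4 and 27.8. Thus 3 separate CDKN1A regions each appeared in 1 library, in a longer replicate 2 list each time. The distal one holds the first CDKN1A match printed above. GADD45A, a growth arrest and DNA damage response gene, was open at its promoter in every library at percentiles 83.1, 86.6, 95.1 and 94.4. Its intronic p53 match lay in the adjoining region at chr1:68151503-68152918, which was at 10.9 and 82.6 in MCF10A and 89.5 in G12V replicate 2, with no peak in G12V replicate 1. BTG2, an antiproliferative gene, stood at 42.7, 63.9, 30.0 and 76.1. The polo-like kinase genes PLK2 and PLK3 were less regular, with PLK2 at 48.7 and 73.6 in the replicate 2 libraries and PLK3 at 0.706, 85.7 and 57.6 in all but G12V replicate 1. SFN, which encodes the checkpoint protein 14-3-3 sigma, had a weak promoter peak at 16.6 in MCF10A replicate 2 alone.

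The 3 genes that feed back on p53 had 1, 3, 2 and 3 accessible promoters. CCNG1, which encodes cyclin G1, had the most uniform promoter of the list, with percentiles 99.8, 99.9, 99.8 and 99.9, and its p53 match lay inside that region. MDM2, the ubiquitin ligase that degrades p53, had a promoter peak at 40.7 in MCF10A replicate 2 and 85.6 in G12V replicate 2, and none in either replicate 1 library. That region, chr12:69201470-69202975, also covered the intronic p53 match. MDM2 had 2 weaker upstream regions, at 1.63 in G12V replicate 2 and at 10.8 and 34.2 in the replicate 2 pair. PPM1D, a phosphatase that turns off the damage response, was open at 89.5, 86.1 and 96.4 in all but MCF10A replicate 1.

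The 12 apoptosis and survival genes had 6, 8, 6 and 9 accessible promoters, and this group included both blank promoters and some near the top of every list. BBC3, which encodes the BH3-only protein PUMA, had no promoter peak in any library. It had 7 regions within 50 kb, of which 4 lay within 4760 bp of the TSS and were each open in 1 library, at percentiles 7.28, 35.4 and 0.823 in MCF10A replicate 2 and 9.13 in G12V replicate 2. The other 3 lay farther upstream, in the promoters of CCDC9 and INAFM1. The CCDC9 region was at 53.01 and 11.5 in MCF10A replicate 2 and G12V replicate 1. The INAFM1 regions were at 23.9 and 12.2 in the replicate 2 pair and at 34.7 in MCF10A replicate 2. BAX, the pore-forming effector of mitochondrial apoptosis, was also without a promoter peak, and a weak region 712 bp after the TSS (percentile 6.17, MCF10A replicate 2) lay just outside the promoter window. Its only other region, 38737 bp after the TSS in the promoters of GYS1 and RUVBL2, was at 23.3 and 80.4 in the replicate 2 pair. So with the TSSs used here the regions of these death effectors lay outside their own promoters, and none had a peak in more than 2 libraries. With the start of any annotated protein-coding transcript as TSS, BBC3 and BAX each had a promoter peak in 1 library.

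Other death genes were open. PMAIP1, which encodes the BH3-only protein NOXA, stood at 65.7, 81.8 and 93.0 in all but G12V replicate 1, with its p53 match in the promoter region. Its 5 other regions were absent from G12V replicate 1 as well and reached at most percentile 58.7. FAS, a death receptor gene, was at 90.7, 39.4 and 94.7 in all but MCF10A replicate 1, and its region extended over the p53 match 662 bp after the TSS. The 2 distal FAS regions were seen in the replicate 2 pair at 40.6 and 43.4 and in G12V replicate 2 alone at 62.8. The nuclease gene AEN was at 89.3, 92.9, 87.0 and 87.8 and its promoter region covered the p53 match. Another 2 AEN regions were open in every library, one 2005 bp after the TSS at 68.9, 35.7, 8.37 and 30.5 and one in the ISG20 promoter at 84.0, 97.5, 91.3 and 96.4. A further AEN region 38345 bp after the TSS was at 81.5 and 82.2 in MCF10A and at 15.0 in G12V replicate 2, and the remaining 3 were each seen in 1 library, at 19.3, 6.28 and 43.5.

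Among the rest of this group, the apoptosome gene APAF1 was at 97.7, 99.3, 92.1 and 99.3, in a promoter region shared with IKBIP. PERP, a desmosome-associated membrane protein gene, was open at 57.2, 77.8 and 68.1, and PHLDA3, an inhibitor of AKT, at 44.1, 28.5 and 51.9, in all but MCF10A replicate 1 for both. The death receptor genes TNFRSF10A and TNFRSF10B differed, the first with peaks at 58.2, 22.2 and 49.0 in all but G12V replicate 1 and the second with 1 peak at 61.5 in MCF10A replicate 1. TRIAP1, a survival gene whose promoter region is also that of GATC, had 1 peak at 58.3 in G12V replicate 2.

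The 4 genes of DNA repair and nucleotide supply had 2, 4, 2 and 4 accessible promoters. RRM2B, which encodes the p53-inducible ribonucleotide reductase subunit, was near the top of every list at 97.9, 99.8, 99.4 and 99.96. DDB2, a nucleotide excision repair gene, had a pair of neighbouring promoter regions in the replicate 2 libraries alone, one at 6.63 and 45.8 and one at 52.0 and 44.3, the second over its p53 match. Its other regions were one in the ARFGAP2 promoter at 46.7, 31.0 and 72.1 in all but G12V replicate 1, and single peaks at 12.9 in MCF10A replicate 2 and 36.7 in G12V replicate 2. XPC, the damage sensor of the same pathway, was at 84.8, 52.1 and 86.9 in all but MCF10A replicate 1, in a region shared with the LSM3 promoter. The translesion polymerase gene POLK was at 61.2, 97.3 and 97.3 in all but G12V replicate 1, in a region shared with CERT1.

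The 6 metabolism and stress genes were the most regularly open, with 5, 6, 4 and 6 accessible promoters. TIGAR, a regulator of glycolysis, stood at 96.4, 98.3, 93.7 and 96.2, and the quinone oxidoreductase gene TP53I3 at 83.5, 95.4, 80.9 and 97.9. Another 3 regions near TP53I3 were open in all 4 libraries, including the SF3B6 promoter at 97.2, 98.3, 91.6 and 95.6 and the WDCP promoter at 80.1, 88.2, 94.5 and 87.0. The mitochondrial quality control gene SPATA18 was at 1.28, 62.1, 22.8 and 89.8 in its promoter, and the region as a whole, which also held its p53 match, at 95.5, 91.4, 22.8 and 89.8. Its 3 other regions were seen in the longer replicate 2 lists alone. They were at 41.6 and 18.7 in G12V replicate 2 and at 80.8 and 76.9 in the replicate 2 pair. The sestrin genes SESN1, in a region shared with the CEP57L1 promoter, and SESN2 were open in all but G12V replicate 1, at 94.4, 90.0 and 97.9 and at 39.8, 55.1 and 68.3. The ferredoxin reductase gene FDXR was at 72.7, 28.7 and 62.0 in all but MCF10A replicate 1.

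The remaining 3 genes ranged from open to blank. ZMAT3, an RNA-binding protein gene, had a promoter peak at 46.2, 63.2, 40.9 and 91.4, and a second region 34225 bp after its TSS stood at 87.3, 92.7, 98.1 and 99.1. GDF15, which encodes a secreted stress cytokine, had no promoter peak and 1 region within 50 kb, 31493 bp after the TSS, at 38.4 in G12V replicate 2. TP53I11 had no region within 50 kb in any library, which was the case for 10.1% of all genes.

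Beyond the promoters, regions that followed the cell type were few, and those seen in G12V alone were of middling or low rank in their lists. Peaks of the 4 libraries that overlapped were merged, and 138 of the merged regions had a peak within 50 kb of a p53 target TSS, out of 31200 near any protein-coding gene. The lists held 45, 96, 48 and 112 peaks within 50 kb of these genes, a mean of 70.5 ± 36.1 in MCF10A and 80 ± 45.3 in G12V (SD, n = 2, exact two-sided permutation test, p = 0.667). The 138 regions comprised 31 in a p53 target promoter, 24 in the promoter of another gene alone and 83 in no promoter. Each gene had a median of 4 regions (range 0 to 9), beside 3 over all genes.

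Of the 138 regions, 20 were open in all 4 libraries (14.5%, beside 11.5% of all regions near genes), and 58 in 1 library (42%, beside 50.7%), of which 34 were in G12V replicate 2, the longest list (24.6%, beside 29.5%). Another 23 were open in the replicate 2 library of both cell types alone (16.7%, beside 17.3%). Gained regions, present in the 2 G12V lists and absent from the 2 MCF10A lists, numbered 6 (4.35%, beside 2.93%) and fell to 5 genes (14.7%, beside 8.13% of all genes). Only 1 region was lost, that is, present in the 2 MCF10A lists and absent from the 2 G12V lists (0.725%, beside 1.75%), so 1 gene had a lost region (2.94%, beside 4.85%). These counts changed with the libraries used. The gained regions numbered 20 if MCF10A replicate 2 was left out and 40 if G12V replicate 1 was. The lost regions numbered 19 if MCF10A replicate 1 was left out, 6 if MCF10A replicate 2 was and 14 if G12V replicate 2 was. With the best 12888 peaks of each list 2 regions were gained and 4 lost, of 72, beside 4.57 and 4.35% of all regions near genes.

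**Figure D4:**
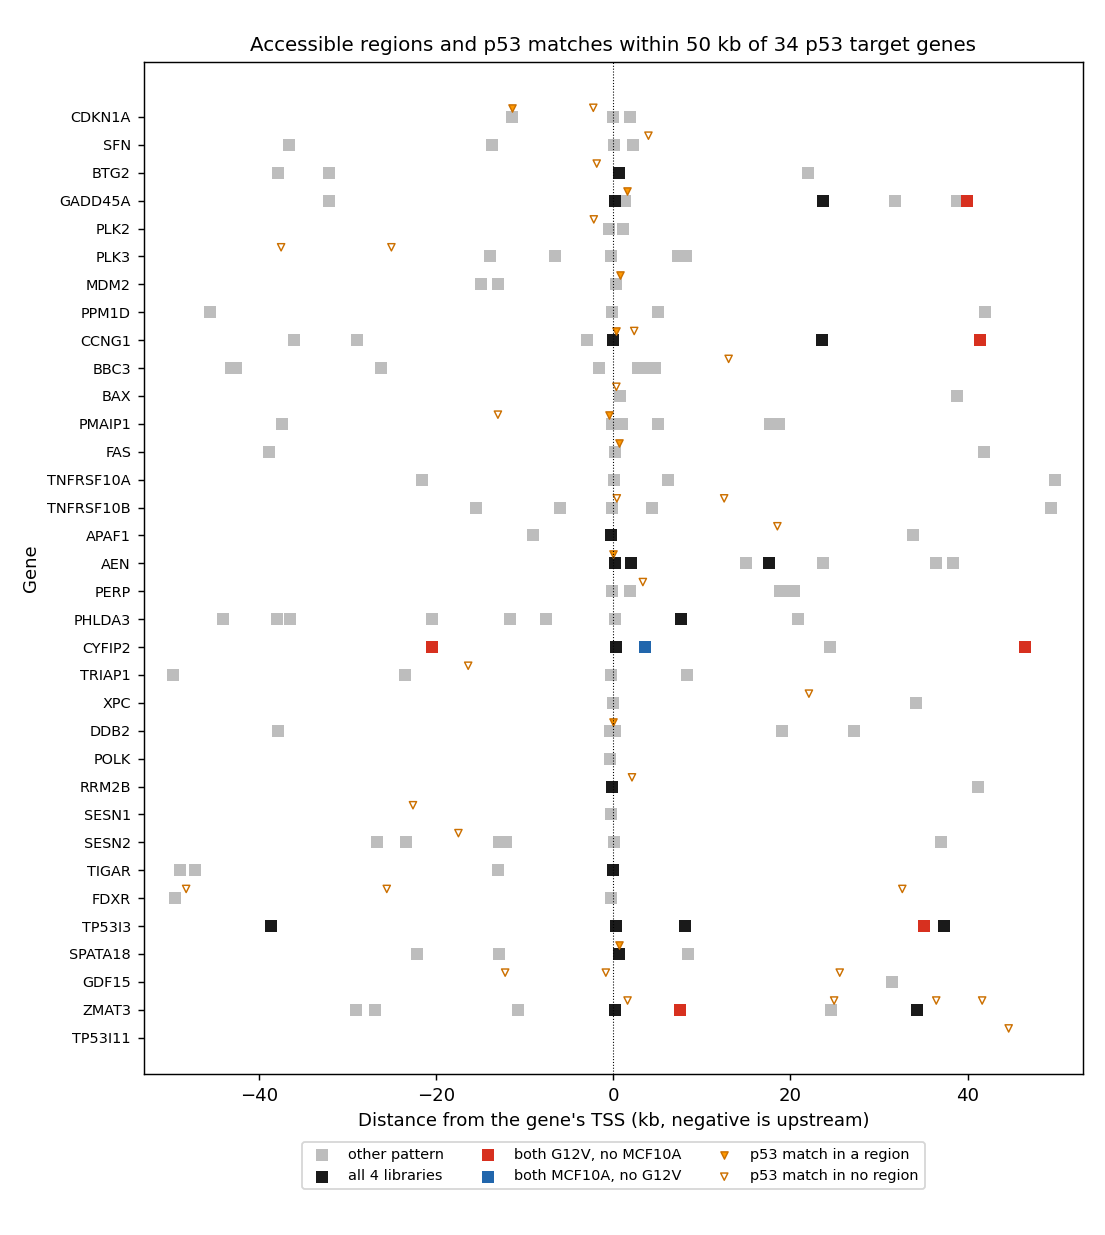
Accessible regions (squares) and p53 matches with up to 2 mismatches (triangles) by distance from the TSS (horizontal axis, kb, negative is upstream) for the 34 genes (vertical axis). Black squares are regions open in all 4 libraries, red those open in both G12V libraries alone, blue those open in both MCF10A libraries alone and grey the rest, and filled triangles are matches inside a region. The 6 red squares all lie more than 7 kb from the TSS and carry no triangle, and the black squares cluster at the TSS.

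The gained regions lay away from the promoters of the genes they were listed for. Of these, 2 were listed for CYFIP2, a p53-inducible gene of the cytoplasmic FMR1-interacting family, of which the one described here lay 46484 bp downstream at chr5:156739357-156739877 in an intron of CYFIP2. Its percentiles were 47.5 and 48.9 in G12V replicates 1 and 2. The lost region also belonged to CYFIP2, at chr5:156696214-156697195 in an intron 3571 bp after the TSS, with percentiles 27.1 and 90.6 in MCF10A. The CYFIP2 promoter itself was open throughout at 56.5, 63.8, 55.3 and 90.3, and another of its regions was seen in G12V replicate 2 at 80.5. CYFIP2 was thus the only one of the 34 genes with regions in both directions.

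Another 4 genes had 1 gained region each. At GADD45A it was chr1:68190674-68191026, in an intron of the neighbouring gene GNG12, at 15.6 and 12.1. At CCNG1 it was chr5:162905595-162906375, in an intron of HMMR, at 1.98 and 69.3. For TP53I3 it was chr2:24272226-24272941 in the FKBP1B promoter, at 27.8 and 26.5, and for ZMAT3 chr3:178781744-178782330 in an intron of ZMAT3, at 20.8 and 42.1. The 6 gained regions spanned percentiles 1.98 to 69.3, and 3 of them were nearest to the TSS of the gene they were listed for. None of the 6 gained regions or the lost region held a p53 match with up to 3 mismatches, beside 4.38% of all regions near genes that did. With equally long lists 0 of the 6 kept the pattern and the lost CYFIP2 region did, which the cut largely set in advance. It shortened G12V replicate 2 from 46673 peaks and took none from MCF10A replicate 1. With the better 50% of each list the CYFIP2 region lost its pattern too.

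The other regions of these genes mostly appeared in several libraries of both cell types. GADD45A had a further region open in all 4 libraries, 23695 bp after the TSS at 53.6, 13.6, 58.8 and 49.9, and one in both replicate 1 libraries at 31.8 and 23.8. It also had a region at 9.07, 51.4 and 7.09 in all but G12V replicate 1 and one at 41.2 in G12V replicate 2. CCNG1 shared the region of the HMMR and NUDCD2 promoters, 23523 bp after its TSS, at 27.8, 99.05, 98.1 and 99.6. Upstream, CCNG1 had a region at 12.3, 56.2 and 81.4 in all but MCF10A replicate 1, one at 63.3 and 57.9 in the replicate 2 pair and one at 44.5 in G12V replicate 2. TP53I3 had its remaining shared region 38683 bp before the TSS at 37.0, 57.4, 61.5 and 79.3. Another 4 ZMAT3 regions were each seen in 1 library, at 0.571, 63.1 and 12.7 in G12V replicate 2 and 31.7 in MCF10A replicate 2.

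At equally long lists other regions took the cell type pattern. The 2 gained ones were the upstream CCNG1 region at chr5:162835288-162836033 and a region near XPC at chr3:14185940-14186679, 33792 bp after its TSS, both of which had a peak in MCF10A replicate 2 in the full lists. Besides the CYFIP2 region, the lost ones were the PLK3 promoter at chr1:45265296-45266398, the AEN region at chr15:89202426-89203406 and a region at chr1:27191535-27192310, 2282 bp after the SFN TSS. Each of these 3 also had a peak in G12V replicate 2 in the full list. The PLK3 peak in MCF10A replicate 1 was at percentile 0.706, and the cut took no peak from that list. Which regions near the p53 targets followed the cell type thus depended on the length of the lists.

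The promoters of the p53 targets had a CpG content close to that of other accessible promoters. The ratio of observed to expected CpG had a median of 0.744 at the 11 promoters open in all 4 libraries, 0.763 at the 19 open in some and 0.691 at the 4 open in none. Over all genes the medians were 0.76, 0.733 and 0.406. Of the blank p53 target promoters, those of BBC3, BAX and TP53I11 thus had more CpG than the median blank promoter. That of GDF15, at 0.417, was close to that median.

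Other genes of the p53 pathway, taken as 2 lists, also had no promoter that followed the cell type in the full lists. Over all promoters 0.886% were open in both G12V libraries alone and 0.512% in both MCF10A libraries alone. Of 20 genes of the p53 family and its regulators, 6, 15, 6 and 14 had an accessible promoter, 4 were open in all libraries, and 4 (TP63, TP73, CREBBP and CDKN2A) in none. Their 53 regions included 1 gained, 16554 bp after the TSS of TP73 at 30.0 and 4.89, and 1 lost, 21148 bp before that of the p53 cofactor gene PPP1R13B at 65.8 and 40.7. Of 18 further p53 targets, 7, 12, 7 and 15 had an accessible promoter. The gained regions among their 76 numbered 2, near EDA2R at 7.26 and 22.6 and near TP53AIP1 at 11.9 and 81.0. Over all regions near genes 2.93% were gained and 1.75% lost, and 22.2, 44.5, 24.2 and 47% of all promoters were accessible. The lists were chosen with earlier results of these data known, and the counts are descriptions.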

How the data were processed

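ATAC-seq peak lists of 2 MCF10A and 2 G12V replicates were used, 1 list per library. As the methods of the study state, reads had been aligned with bowtie (0.12.9), limited to those with a unique place, and shifted at their starts to the transposition event, and the authors ran MACS (1.4.2, with tag size 51, shift size 75, local window 25000 bp, p 1e-04). The deposited lists give the place of each peak and its MACS score. The score is the negative log10 of the peak's p-value times 10. It grows with depth, so its percentile within the list was used. The study pooled replicates for its own calls, whereas the deposited lists are per library and hold no read numbers, so a weak locus in a short list reads as absent.

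Peaks of the 22 autosomes and of X (Y peaks, 14 to 25 per list, were left out) were merged across libraries at 1 bp of overlap. Each TSS was that of the MANE Select or, failing that, the Ensembl canonical or principal transcript in GENCODE release 44 on GRCh37. Sequences came from GRCh37, the build of the peaks. The p53 scan is described with its results. Numbers per library were compared by exact two-sided permutation tests, and p-values measure only the spread between these replicates. Counts of regions were read beside the share over all features, without a set test.

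The members, roles and pathway lists were chosen with earlier results of these data known. Named with their peaks, apart from those not reported here, were genes with a gained or lost region, with no accessible promoter or with a p53 match of up to 2 mismatches in a region, and CDKN1A, MDM2, BBC3, BAX and GDF15. Named after their values were seen were the other genes given promoter values and the regions that took a cell type pattern at equal list lengths. A few results on regions and pathway genes are not reported here. Alternatives were equal lists, the better 50% of each list, other TSSs, distances, overlaps and mismatch limits, leaving out each library, and replicate pairs. Labels give matching replicate numbers but no shared source, so pairs were an alternative. Merging and scanning were tested on simulated data. Python 3.11.15 was used with numpy 2.4.6, scipy 1.17.1, pandas 2.3.3 and matplotlib 3.10.9.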

Additional observations from a re-analysis of the deposited data

How the results depend on the processing

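The difference in accessible p53 target promoters between the cell types was 0 with equal lists and 1 with the better 50% of each list. On leaving out a library it took either sign, from -5.5 without G12V replicate 2 to 5.5 without G12V replicate 1. Each value was smaller than the spread between replicates in the full lists (SD 6.36 in MCF10A and 7.78 in G12V). Gained regions numbered 6, but 2 with equal lists, 1 with the better 50%, 2 within 25 kb, 42 with a peak in either G12V library and none in MCF10A, and between 7 and 40 on leaving out a library (20 without MCF10A replicate 2, 40 without G12V replicate 1). The lost region became 4 with equal lists, 2 with an overlap of 50%, 4 within 100 kb, 23 with either MCF10A library, and between 1 and 19 on leaving out a library (19 without MCF10A replicate 1, 6 without MCF10A replicate 2, 14 without G12V replicate 2). Promoters open in all libraries numbered between 11 and 17 on leaving out a library (17 without MCF10A replicate 1 and 17 without G12V replicate 1). They were 10 with equal lists and 8 with the better 50%. With the 5′ end of each gene as TSS they were 8, and with any protein-coding transcript start 12. Regions with a p53 match fell from 15 to 9 with up to 2 mismatches and to 4 in a 150 bp window. The cause of these shifts was not tested.

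With the replicate number as a block, counts within replicate pair 1 and pair 2 were 24 and 43 gained regions, 21 and 21 lost regions, and 11 and 26 promoters open in both cell types, and the permutation p for accessible promoters was 1 (smallest 0.5). The labels give the replicates a shared number and no more. The deviations of same-numbered libraries had a correlation of 0.011 over the 34 promoters, and 10 promoters in MCF10A and 11 in G12V had a peak in replicate 2 and not in replicate 1, so a shared batch was not settled. BBC3 and BAX each gained a promoter peak in 1 library with any protein-coding transcript start as TSS. With the 5′ end of the gene CDKN1A and TP53I3 had none, TIGAR had one in 2 libraries and ZMAT3 in 3.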
